A study of Mus musculus with 6 samples.

Results

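Hearts of transgenic mice of a line expressing much fatty acid synthase (FASN) in the myocardium were compared with hearts of B6 control mice. The comparison rests on 4 of the study's 6 expression arrays, namely the 2 titled as transgenic heart with high FASN and the 2 titled as B6 control heart, and it takes in all 45037 probe sets that are not the array's own controls. All mice were male and carried the strain label C57BL/6J. In the transgenic mice FASN was driven by the alpha-MHC promoter, which is specific to the myocardium, and the controls were matched in age, at an age that the sources do not state. The other 2 arrays came from a second transgenic line with low cardiac FASN. They entered the same model, and their values stand beside those of the high line. Each level of FASN is 1 transgenic line, so the level of FASN and any other feature of the line cannot be told apart. The tissue label calls the heart transgenic in all 6 samples, controls included, so title and phenotype label gave the groups. The labels number 2 samples a group without saying that they came from separate hearts, and p-values here reflect how far these arrays differ, which may be technical spread only.

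FASN joins acetyl-CoA and malonyl-CoA into palmitate with NADPH as the reducing agent, and it is most abundant in liver, fat and the lactating mammary gland. The adult heart makes little fat of its own and burns fatty acids taken up from blood. Heart tissue also holds vessels, fibroblasts, resident macrophages and the fat and lymph tissue around it. In RNA of whole tissue, fewer cells of a type and less RNA per cell cannot be told apart. The labelled tissue was borne out by its defining genes, with Myh6, the alpha-MHC gene itself, at signals of 30897 and 30150.0 in the controls, the third brightest of all tested genes over the 6 arrays. Fasn had signals of 213 and 187 on the control arrays, then 462 and 481 on the low arrays and 2268 and 2104 on the high arrays, 10.2-fold above control on the scale used here.

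Signals are linear hybridisation intensities per probe set. They were compared as log2(signal + 16), so a difference of 1 is a doubling of signal + 16, and differences of dim genes are understated. A gene was called when limma's moderated test gave a Benjamini-Hochberg adjusted p below 0.05 over all 22519 tested probe sets, and only called genes are said here to have risen or fallen. Of these probe sets 3234 were called, which is 14.4%, with 1843 higher and 1391 lower in the high line. With 1 probe set a gene, 1946 of 11498 tested genes were called, which is 16.9%. Of all tested genes, 9.97% were called higher (1146 genes) and 6.96% lower (800 genes), and these are the shares against which each gene list is read below. The median difference over all tested genes was 0.04, and the median size of a called difference was 0.47, so most calls were changes of well under a doubling. The probe sets of Acta2, Aif1, Angptl4, Gja1, Idh3b, Igfbp5, Ighm, Ms4a6d, Mt1, Notch3, Npnt, Pde2a, Pgd and Tkt are of a kind that may read related transcripts as well, so the values of these genes are less certain. At least 1 further tested probe set was not called, without being called the other way, for Dsc2, Gja1, Gpd1, Ier5, Igfbp5, Mmp2, Mtr, Myl4, Npnt, Pde2a, Per2, Phka1, Slc2a1, Slc30a1, Slc39a14, Slc40a1, Sox4, Tfrc, Timp2, Tpm2 and Tsc22d3. Differences of at least 1 were rarer, with 123 genes higher and 76 lower. Leaving out control array 1 or control array 2 cut the called genes to 959 and 874, and leaving out high array 1 or high array 2 gave 1508 and 1994. Genes of lipogenesis, fat, airway and collagen matrix, 62 of which were called among 109 tested, are set aside from what follows except as marker sums.

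**Figure D1:**
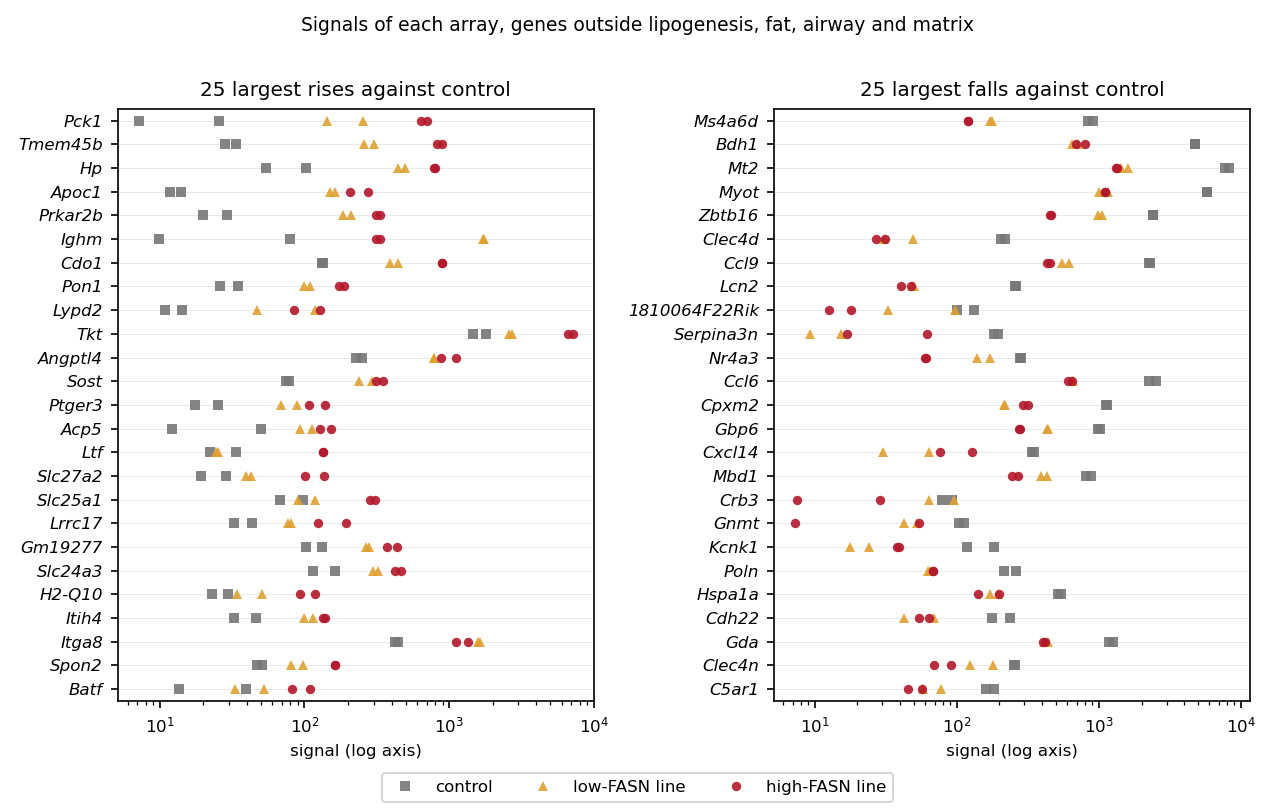
Signals on each of the 6 arrays, on a log axis, for the 25 largest rises (left) and the 25 largest falls (right) of the high-FASN line against control, outside the lists set aside; squares are control arrays, triangles the low-FASN line and circles the high-FASN line. In both panels the circles lie apart from the squares for every gene, while the triangles lie between them for genes such as Pck1 and Zbtb16, near the circles for genes such as Mt2 and Ccl6, and beyond the circles for Ighm and Itga8.

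The largest rise outside the set-aside lists was that of Pck1, the cytosolic phosphoenolpyruvate carboxykinase. This enzyme feeds both glucose synthesis and the making of glycerol 3-phosphate for triglycerides. Pck1 signals were 708 and 635 on the high arrays, against 253 and 143 on the low arrays and 25.7 and 7.21 on the controls. The high arrays lay far above the controls, and the low arrays lay between them. The rise was 4.46 (SE 0.30, adjusted p = 2.14e-05), and it exceeded that of the low line by 1.73 (adjusted p = 0.00466). Tmem45b, a transmembrane protein gene, followed with signals of 828 and 888 in the high line, against 259 and 303 in the low line and against 28.1 and 33.6 in the controls, again with the low line in between, and a rise of 4.22 (SE 0.14, adjusted p = 2.21e-07). Cdo1, cysteine dioxygenase, which commits cysteine to taurine and sulfate, stood at 135 and 132 on the control arrays, then 389 and 446 on the low arrays and 888 and 891 on the high arrays. Its replicates were nearly equal within each group, the 3 groups did not overlap, and the rise was 2.60 (SE 0.11, adjusted p = 7.43e-07). Pck1 and Tmem45b had control means of 16.4 and 30.8, below the floor of the signal filter at about 47.01. They therefore passed it through the transgenic arrays.

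Several of the large rises were in genes of plasma proteins and of hormone signalling. Hp, whose product haptoglobin binds free haemoglobin, had signals of 779.8 and 796 on the high arrays, against 440.2 and 493 on the low arrays and 102 and 54.2 on the controls, and it rose by 3.14 (SE 0.21, adjusted p = 1.7e-05). Apoc1, an apolipoprotein of triglyceride-rich particles, went from 14.0 and 11.8 in the controls to 206 and 275. Pon1, the paraoxonase carried on high-density lipoprotein, went from 25.9 and 34.8 to 189 and 174. Prkar2b, the RII-beta regulatory subunit of protein kinase A, was at 333 and 311 in the high line, against 209.5 and 184 in the low line and against 19.9 and 29.0 in the controls. It rose by 3.07 (SE 0.18, adjusted p = 9e-06), and its second probe set rose by 2.43. Control means were 12.9 for Apoc1, 30.4 for Pon1 and 24.4 for Prkar2b, again below the filter floor. These genes too passed it through the transgenic arrays. Angptl4, an inhibitor of lipoprotein lipase, was at 248 and 226 on the control arrays, then 782 and 791 on the low arrays and 882 and 1116 on the high arrays. Its rise was 1.996 (SE 0.12, adjusted p = 6.96e-06), and the high-minus-low difference of 0.33 was not called (adjusted p = 0.0771). Sost, which encodes the Wnt inhibitor sclerostin, rose by 1.90. Fat and liver also make several of these transcripts. Of the 15 tested white fat markers 10 rose and 1 fell (6 rose without either control array), and their summed signal was 75333 and 82872 on the high arrays, 61029 and 62254 on the low arrays and 51701 and 52769 on the controls. Adipoq, the adipocyte hormone gene, was at 3485 and 3181 on the high arrays, against 1678 and 1681 on the low arrays and 138 and 97.5 on the controls. Of 12 liver markers 5 were tested, of which Hp itself and Cyp2e1 rose and 1 fell, and the albumin gene was not among the tested genes. The part of fat tissue in these rises was not tested.

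Some enzymes and carriers of citrate export, glycerol 3-phosphate supply and the pentose phosphate pathway rose as well. Their 2 lists were put together after results were known. Of 13 tested genes of citrate export, anaplerosis and glycerol 3-phosphate supply, 7 rose and none fell, with a median of 0.59, and 1 was called lower after quantile normalization. Of 13 tested genes of the pentose phosphate pathway and cytosolic NADPH supply, 3 rose, 10 were not called and the median was 0.12. Slc25a1, the carrier that moves citrate out of mitochondria, was at 282 and 309 in the high line, against 89.9 and 119 in the low line and against 97.2 and 67.7 in the controls. The low line overlapped the controls and the high line stood alone, with a rise of 1.68 (SE 0.20, adjusted p = 0.000758). Gpd2, the mitochondrial glycerol 3-phosphate dehydrogenase, had signals of 411 and 415 on the control arrays, then 480.2 and 514 on the low arrays and 1048 and 833 on the high arrays, and all 3 of its tested probe sets rose. Gpd1, its cytosolic partner, rose by 1.02. Pcx, pyruvate carboxylase, which makes oxaloacetate, was at 483 and 516 on the high arrays, against 265 and 265 on the low arrays and 332 and 321 on the controls. It rose by 0.59 (SE 0.10, adjusted p = 0.00513) in the high line, whereas the low line lay below both controls. Tkt, the transketolase of the pentose phosphate pathway, had one of the highest signals among the large rises, at 7125 and 6610.4 in the high line, against 2610.2 and 2739 in the low line and against 1804 and 1467 in the controls. Its rise was 2.07 (SE 0.090, adjusted p = 9.29e-07), and a second probe set rose by 1.53. Taldo1, transaldolase of the same pathway, rose by 0.48, while Pgd, its NADPH-making dehydrogenase, had a difference of 0.059 and was not called (adjusted p = 0.71). Cs, citrate synthase, differed by 0.20 by its brightest probe set, which was not called (adjusted p = 0.051) but passed in 4 alternatives, while a second probe set was called higher (0.32, adjusted p = 0.00883).

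A further group of rises was shared with, or exceeded by, the low line. Itga8, the integrin alpha-8 chain, was at 440.3 and 426 on the control arrays, then 1574 and 1640.2 on the low arrays and 1122 and 1341 on the high arrays, higher in the low line than in the high line by 0.38 (adjusted p = 0.0174). Npnt, nephronectin, an extracellular ligand of that integrin, was at 194 and 218 on the high arrays, against 253 and 284 on the low arrays and 62.9 and 72.0 on the controls, and it rose by 1.41 (SE 0.16, adjusted p = 0.000499). Tfrc, the transferrin receptor through which cells take up iron, was at 2958 and 2645 in the high line, against 4985 and 4888 in the low line and against 1084 and 1042 in the controls. It rose by 1.38 (SE 0.066, adjusted p = 1.86e-06), and the low line stood higher still. Among 17 tested genes of iron handling, Hp and Tfrc rose, and 3 fell. Cp, the ferroxidase ceruloplasmin, fell by 0.51, and Slc40a1, the iron exporter ferroportin, fell by 0.59. Clec7a, the fungal glucan receptor dectin-1 of myeloid cells, was at 86.7 and 80.7 on the control arrays, then 427 and 429.9 on the low arrays and 235 and 247 on the high arrays, and it rose by 1.37 (SE 0.13, adjusted p = 0.00019). Gas1, a membrane protein that takes part in hedgehog signalling, was at 4431 and 4455 on the high arrays, against 3040.4 and 3225 on the low arrays and 1713 and 1745 on the controls, with the order high, low, control kept by every array.

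Txnip, the thioredoxin-interacting protein that limits glucose uptake, was bright and rose from 3676 and 3889 in the controls to 7904 and 8184 in the high line, by 1.09 (SE 0.054, adjusted p = 2.45e-06). Srsf5, a splicing factor of the SR family, rose from 2118 and 1930.5 to 4622 and 4339.8, by 1.14 (SE 0.064, adjusted p = 5.25e-06). Cirbp, the cold-inducible RNA-binding protein, rose by 0.78. Of the 35 tested splicing factors only Srsf5 and Cirbp rose and 8 fell, among them Mbnl2, which regulates muscle splicing, by 0.46, although 2 dimmer probe sets of it were higher without being called. The falls numbered 4 and 2 without control array 1 or 2. Sox4, a transcription factor of progenitor cells, rose by 1.14 and was the 1 called gene of 11 tested SOX factors; it was chosen after its values were seen.

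The largest falls outside the set-aside lists were those of Ms4a6d, Bdh1, Mt2, Myot and Zbtb16. Zbtb16, a zinc finger transcription factor also known as PLZF that responds to glucocorticoids, was at 452 and 463 in the high line, against 1048 and 995 in the low line and against 2394 and 2399 in the controls. All 3 groups were apart, the high line was lowest, and Zbtb16 fell by 2.35 (SE 0.068, adjusted p = 7.03e-08), farther than in the low line by 1.13 (adjusted p = 2.55e-05). Nr4a3, an orphan nuclear receptor induced early after stimulation, had the same order at 281 and 284 on the control arrays, then 140.1 and 172 on the low arrays and 60.2 and 61.1 on the high arrays, and it fell by 1.96 (SE 0.17, adjusted p = 8.61e-05). By contrast Gda, guanine deaminase, was at 418 and 408 on the high arrays, against 439.5 and 414 on the low arrays and 1252 and 1172 on the controls, with the transgenic lines at one level (high minus low -0.045, adjusted p = 0.758). Mbd1, a reader of methylated DNA, fell by 1.64. Serpina3n, an acute-phase protease inhibitor, fell by 2.01, from 194 and 182 on the controls to 61.4 and 17.0 on the high arrays. The low arrays were at 15.3 and 9.23. Serpina3n passed the signal filter, at about 47.01, through the control arrays and was not tested in every alternative. Of the 40 largest falls 18 differed between the lines, 15 of them lower in the high line and 3 higher. Of the 40 largest rises 26 differed, 21 higher in the high line and 5 lower. Among those rises 26 had a control mean signal below 100, and among the falls 18 had a high-line mean below 100, where signals are dim.

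Metallothioneins are small cysteine-rich proteins that bind zinc and copper, and glucocorticoids and metals both induce them. Both tested metallothionein genes fell. Mt2 was at 1323 and 1344 in the high line, against 1595 and 1441 in the low line and against 7678 and 8214 in the controls, and Mt1 was at 14946 and 14122 on the control arrays, then 6406 and 6518 on the low arrays and 6366 and 6012 on the high arrays. The transgenic lines lay together and well below the controls for both genes. The falls were 2.56 (SE 0.066, adjusted p = 5.05e-08) for Mt2 and 1.23 (SE 0.053, adjusted p = 8.52e-07) for Mt1. Among the 15 tested genes of metallothioneins and zinc handling, Slc30a1, a zinc exporter, rose by 0.62 and Slc39a14, a zinc importer, fell by 0.66. The 250 bases before the annotated starts of these neighbouring genes are shown because both genes fell. They are RefSeq sequence of GRCm38.p6, from chr8:94178839-94179088 for Mt1 and chr8:94172368-94172617 for Mt2, both on the plus strand, with matches to TGCNCNC, the core of the metal response element, on either strand in capitals.

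Mt1: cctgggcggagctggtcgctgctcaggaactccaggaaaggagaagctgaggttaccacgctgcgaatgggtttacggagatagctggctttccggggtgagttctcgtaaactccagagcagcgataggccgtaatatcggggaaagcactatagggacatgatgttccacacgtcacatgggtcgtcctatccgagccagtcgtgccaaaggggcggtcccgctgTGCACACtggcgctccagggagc

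Mt2: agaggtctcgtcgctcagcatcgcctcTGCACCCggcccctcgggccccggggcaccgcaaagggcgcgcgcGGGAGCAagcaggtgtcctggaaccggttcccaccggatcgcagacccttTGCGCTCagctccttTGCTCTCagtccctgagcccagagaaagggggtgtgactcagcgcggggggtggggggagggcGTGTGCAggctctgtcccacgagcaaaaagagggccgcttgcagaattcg

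The core was searched over 250 bases before and 50 after each annotated start. It matched there 3 times for Mt1 and 6 times for Mt2, and 1 and 5 of these lie in the printed stretch. Sequence beyond this window was not searched, so the counts do not rank Mt1 against Mt2. Of the 15 tested genes of the list 13 had a promoter in the table and 11 of those held the core (84.6%), against 51% of all 32851 promoters, and a match is a description of the letters, not a binding site.

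Among glucocorticoid-responsive genes falls outnumbered rises. Of 23 tested members 11 fell and 2 rose, beside 6.96% and 9.97% of all tested genes, and the median was -0.34 against 0.04. Beside the metallothioneins and Zbtb16, Glul, glutamine synthetase, was at 4485 and 4982 on the high arrays, against 6377 and 6631 on the low arrays and 9702 and 8849 on the controls, and it fell by 0.97 (SE 0.066, adjusted p = 2.23e-05). Fkbp5, a co-chaperone of the glucocorticoid receptor, was at 267 and 301 in the high line, against 277 and 324 in the low line and against 577 and 713 in the controls, and its second probe set fell by 1.61. Tsc22d3, which encodes the glucocorticoid-induced leucine zipper, fell from 3483 and 3266 to 2204 and 2389, and Cebpb, a C/EBP transcription factor, from 3038 and 3047 to 1726 and 1299. These last 3 were chosen after their values were seen. The receptor gene itself, Nr3c1, differed by 0.014 (adjusted p = 0.903), and Klf15, another classical target, by -0.014 (adjusted p = 0.941). Neither was called. Against the falls, Angptl4, which is plotted with the glucocorticoid-responsive genes, rose by 1.996 (SE 0.12, adjusted p = 6.96e-06). Leaving out control array 1 left 8 falls and 1 rise, without control array 2, 1 rose, and 1 rose after quantile normalization or median centring.

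Heat shock proteins are chaperones that the factor HSF1 induces when proteins misfold. Of 35 tested members 10 fell and 2 rose, with a median of -0.14. Hsp90aa1, the inducible cytosolic Hsp90, was at 7829 and 7907 on the control arrays, then 7033 and 7230.5 on the low arrays and 3849 and 4088 on the high arrays. Only the high line lay far below the controls, where it fell by 0.99 (SE 0.051, adjusted p = 3.21e-06), and it was below the low line by 0.84 (adjusted p = 2.72e-05). Hspa1a and Hspa1b, the near-identical genes of inducible Hsp70, fell in parallel. Hspa1a was at 140.3 and 198 on the high arrays, against 171 and 195 on the low arrays and 514 and 545 on the controls, and Hspa1b was at 403 and 448 in the high line, against 445 and 478 in the low line and against 1103 and 1114 in the controls. The lines overlapped for Hspa1a and lay close for Hspa1b, and the genes fell by 1.58 (SE 0.16, adjusted p = 0.000294) and by 1.35 (SE 0.089, adjusted p = 1.7e-05). The copies are so alike that their probe sets may read each other's transcripts. Dnajb4, a J-domain partner of Hsp70, fell from 5828 and 5518 to 3727 and 3626. The small heat shock gene Cryab, abundant in muscle, differed by 0.037 and was not called (adjusted p = 0.679), but after quantile normalization it was called lower (-0.16, adjusted p = 0.00647). Over the whole J-domain family 9 of 36 tested genes fell and none rose. With control array 1 or 2 left out, 4 heat shock proteins fell each time and 0 and 1 rose, and 3 J-domain genes fell each time. Without high array 1 or 2, 9 and 8 heat shock proteins fell and 1 rose each time. After quantile normalization 14 heat shock proteins fell and 1 rose. Upstream sequence of the Hsp70 copies is shown because their falls cannot be assigned to one copy. It comes from RefSeq, GRCm38.p6, chr17:34972157-34972406 for Hspa1a and chr17:34959239-34959488 for Hspa1b, both on the minus strand, with the heat shock element GAANNTTC in capitals.

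Hspa1a: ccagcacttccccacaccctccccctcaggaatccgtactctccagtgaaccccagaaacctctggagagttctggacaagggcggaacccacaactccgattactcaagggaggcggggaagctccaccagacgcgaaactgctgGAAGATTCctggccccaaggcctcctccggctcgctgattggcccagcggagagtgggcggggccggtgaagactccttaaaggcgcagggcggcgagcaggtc

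Hspa1b: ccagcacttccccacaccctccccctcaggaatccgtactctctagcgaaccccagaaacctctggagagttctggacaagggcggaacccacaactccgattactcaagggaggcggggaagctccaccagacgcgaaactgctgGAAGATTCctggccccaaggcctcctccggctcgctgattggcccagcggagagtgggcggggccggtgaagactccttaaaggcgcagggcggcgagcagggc

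The windows of 300 bases around the starts were identical at 296 of 300 positions and held the element once each. The element, which reads the same on both strands, matched in 7.86% of all promoters. Among the 29 of 35 tested heat shock genes with a promoter in the table, 12 held it, or 41.4%, as did 5 of the 8 that fell and had a promoter in the table.

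Folding genes of the endoplasmic reticulum, which meet secreted and membrane proteins and answer to the unfolded protein response, also fell: 8 of 27 tested members fell and none rose (median -0.11). Herpud1, which takes part in the disposal of misfolded proteins, was at 5134 and 5219 on the control arrays, then 2981 and 2941 on the low arrays and 2803 and 2599 on the high arrays, and it fell by 0.94 (SE 0.056, adjusted p = 9e-06), with its second probe set falling by 1.13. Dnajb9, a co-chaperone of the lumen, was at 3843 and 3981 on the high arrays, against 3964 and 3891 on the low arrays and 5476 and 5591 on the controls. For both genes the transgenic lines lay close together. Manf, a secreted stress-induced factor, set the lines apart. Its signals were 985 and 964 in the high line, against 1861 and 1905 in the low line and against 1449 and 1464 in the controls, with the high line below and the low line above both controls, a high-minus-low difference of -0.94 (adjusted p = 4.08e-05). The lumenal Hsp70 gene Hspa5, the most used readout of this response, had no settled direction, as its brightest probe set differed by -0.067 and was not called (adjusted p = 0.512), while a second bright probe set was called lower (-0.41, adjusted p = 0.000566). Leaving out control array 1 or 2 gave 3 and 5 falls.

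The circadian clock is a loop in which activators drive Per, Cry and Nr1d genes whose products then repress them, and the heart has a clock of its own. Of 22 tested clock genes 9 fell and 2 rose, with a median of -0.23. Per2, a core repressor, was at 264 and 265 on the control arrays, then 231 and 227 on the low arrays and 81.4 and 95.4 on the high arrays. The low line lay near the controls and the high line stood apart, where Per2 fell by 1.43 (SE 0.15, adjusted p = 0.000282) with a high-minus-low difference of -1.23 (adjusted p = 0.000696). Usp2, a deubiquitinase under clock control, was at 2806 and 2529.6 on the high arrays, against 2717 and 2877 on the low arrays and 4154 and 4356 on the controls, and it fell in the high line by 0.67 (SE 0.066, adjusted p = 0.00022). Nfil3, a repressor that opposes the PAR-domain factors, went from 551 and 421 to 246 and 259, and Tef, one of those factors, from 1759.8 and 1783 to 1331 and 1374. Nr1d1, the repressor REV-ERB alpha, moved the other way, at 275 and 249 in the high line, against 193 and 168 in the low line and against 127 and 146 in the controls, with a rise of 0.87 (SE 0.15, adjusted p = 0.00525). Its sister Nr1d2 fell by 0.32 at 5473 and 5570.3 on the control arrays, then 7301 and 7700.1 on the low arrays and 4498 and 4359 on the high arrays, where the low line lay above the controls. A second probe set of Nr1d2 and of Tef pointed the other way, by 0.080 and 0.17, and was not called. Per1 differed by -0.071 (adjusted p = 0.781) and Arntl, an activator of the loop, by 0.33 (adjusted p = 0.234), and neither was called. The sources do not state at what time of day hearts were taken. In the fits without either control array 5 clock genes fell each time, without high array 1, 6 fell, and without control array 2 only 1 rose. The E-box CACGTG, through which the activators bind and which reads the same on both strands, matched in 6 of the 19 clock promoters in the table (31.6%), 3 of them among the 8 of genes that fell, and in 7.15% of all promoters.

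**Figure D2:**
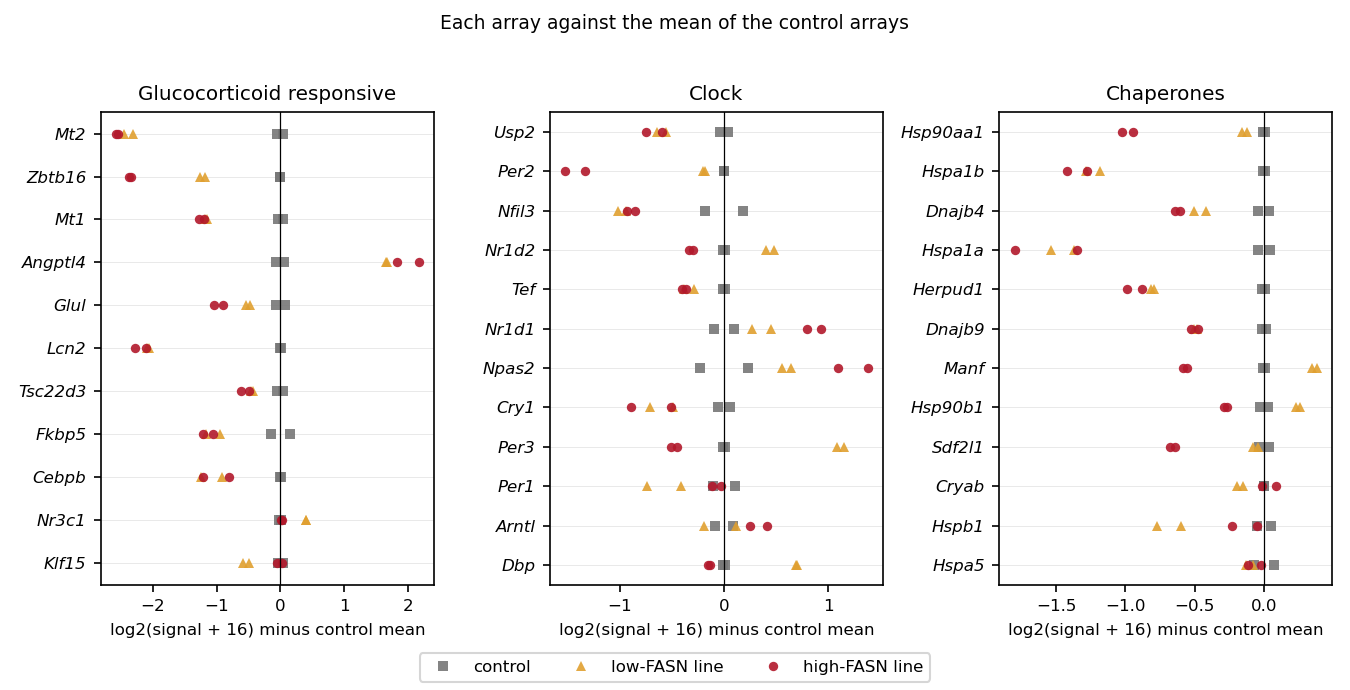
Log2(signal + 16) of each array minus the mean of the 2 control arrays, for glucocorticoid-responsive genes (left), clock genes (middle) and chaperones (right); squares are controls, triangles the low-FASN line and circles the high-FASN line. Mt2, Mt1, Hspa1a, Hspa1b and Herpud1 have circles and triangles together below 0, Per2 and Hsp90aa1 have only the circles far below 0, and Manf and Nr1d2 have circles and triangles on opposite sides of 0.

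Immediate early genes switch on within minutes of a stimulus. Of 25 tested members 5 fell and 2 rose. Ier3, which limits cell death, was at 1090.0 and 1055 on the high arrays, against 1225 and 1274 on the low arrays and 2361 and 2051 on the controls, and it fell by 1.03 (SE 0.077, adjusted p = 4.28e-05). Ier5 fell by 0.88. Egr1, a zinc finger factor of this class, was at 758 and 924 in the high line, against 2000.5 and 1889 in the low line and against 387 and 327 in the controls. It rose by 1.20 (SE 0.11, adjusted p = 0.000154), and the low line was higher still. Fos, the best known member, was at 227.1 and 240.3 on the control arrays. Its signals were 1205 and 1083 on the low arrays and 214 and 226.6 on the high arrays. Both high arrays lay just below both controls, and Fos was not called (difference -0.080, adjusted p = 0.663). The low line stood apart from both groups. In fits lacking 1 of the controls 3 members fell and 1 rose each time, and without high array 1 or 2, or after quantile normalization, median centring or cyclic loess, 1 rose.

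Macrophages are the most numerous leukocytes of the healthy heart. Of 30 tested macrophage markers 13 fell and none rose (1 did after quantile normalization), with a median of -0.25, against 6.96% of all genes called lower. Lyve1, a hyaluronan receptor of resident macrophages and lymphatic vessels, was at 1083 and 1021 on the high arrays, against 1504 and 1450.1 on the low arrays and 2574 and 2516 on the controls, and its second probe set fell by 1.11. Cd163, the haemoglobin scavenger receptor, was at 482 and 505 in the high line, against 409 and 431 in the low line and against 756 and 715 in the controls. C1qb, a chain of complement C1q, fell from 1464 and 1526 to 1157 and 1036, with all 3 of its probe sets lower. Msr1, a scavenger receptor for modified lipoproteins chosen after its values were seen, fell by 1.33. The general macrophage genes Cd68 and Aif1 differed by -0.14 (adjusted p = 0.568) and 0.18 (adjusted p = 0.516) and were not called. The summed signal of the list was 22881 and 22912 on the high arrays, 27178 and 27670 on the low arrays and 27795 and 28392 on the controls. The falls numbered 8 and 7 when control array 1 or 2 was left out.

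Several chemokines that attract myeloid cells fell. Of 19 tested chemokines 5 fell and 2 rose, and with any 1 of the 4 arrays left out 1 rose. Ccl6, a chemokine of macrophages and other myeloid cells, was at 2253 and 2544 on the control arrays, then 653 and 659 on the low arrays and 649 and 608 on the high arrays, with the transgenic lines at one level, and it lies next to Ccl9, which fell as well. Ccl8 fell from 418 and 399.7 to 129 and 168. Ccl11, the eosinophil attractant eotaxin, was at 188 and 218 on the high arrays, against 91.2 and 121 on the low arrays and 505 and 544 on the controls, lowest in the low line. Cxcl14 fell by 1.65, while Cxcl12, the stromal attractant of progenitor cells and lymphocytes, rose by 0.45. In the MS4A family of membrane proteins 4 of 8 tested genes fell and 1 rose, a rise not called without high array 2 or control array 1. Ms4a6b, a member found on lymphoid and myeloid cells, fell from 1074 and 953 to 375 and 357, and Ms4a6c fell by 0.81. C5ar1, the receptor for complement C5a, fell by 1.49, from 161 and 183 to a dim 57.1 and 45.3. Il33, an alarm cytokine of stromal cells, fell from 589.7 and 638 to 243 and 249, by 1.26 (SE 0.12, adjusted p = 0.000154). Gbp6 and Ifi204, which respond to interferons, fell by 1.80 and 1.46, whereas Ifi27, another interferon-induced gene, rose by 1.14. Of 28 tested genes of an interferon response list 4 rose and 2 fell. Of 32 tested interferon-induced genes grouped by symbol 4 rose and 6 fell. Over all tested genes 9.97% were called higher and 6.96% lower.

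Several B-cell and plasma-cell genes went the other way. Of 14 listed markers 10 were on the array, only 6 passed the signal filter and were tested, and 4 of these rose. Ighm, the immunoglobulin mu heavy chain, was at 333 and 310.2 in the high line, against 1712 and 1729 in the low line and against 9.91 and 80.0 in the controls. The controls differed from each other, the high line lay above both and the low line lay far above the high line, a high-minus-low difference of -2.36 (adjusted p = 0.00687). Its other probe sets disagreed, with differences of -1.17, 1.01 and -0.56, so the gene as a whole has no settled direction. Jchain, which links immunoglobulin M and A into polymers, was at 43.7 and 49.8 on the control arrays, then 423 and 441 on the low arrays and 93.7 and 133 on the high arrays, and it rose by 1.03 (SE 0.19, adjusted p = 0.00676), again with the low line higher. The summed signal of the B-cell and plasma-cell markers was 1335 and 1506 on the high arrays, 3158 and 3268 on the low arrays and 714 and 865 on the controls. Sums and counts take each gene by its brightest probe set, so the disagreement within Ighm does not show in them. Ltf, lactotransferrin of neutrophil granules and gland secretions, was at 134 and 135 on the high arrays, against 25.1 and 24.4 on the low arrays and 22.1 and 33.6 on the controls: only the high line was raised. Of 6 tested neutrophil markers Ltf rose and 3 fell, and their summed signal was 394 and 412 on the high arrays against 634 and 714 on the controls. Summed airway markers were 11391 and 11909 on the high arrays against 8882 and 8904 on the controls. The part of blood, lymph tissue or airway in these values was not tested. Without high array 2 or control array 2, 3 of the B-cell markers rose, and without control array 1, 2 did. Ltf passed the signal filter through the high arrays and was not tested when either of them was left out. Ighm and Jchain had control means of 45.0 and 46.7, below the filter floor of about 47.01, so they passed it through the transgenic arrays.

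**Figure D3:**
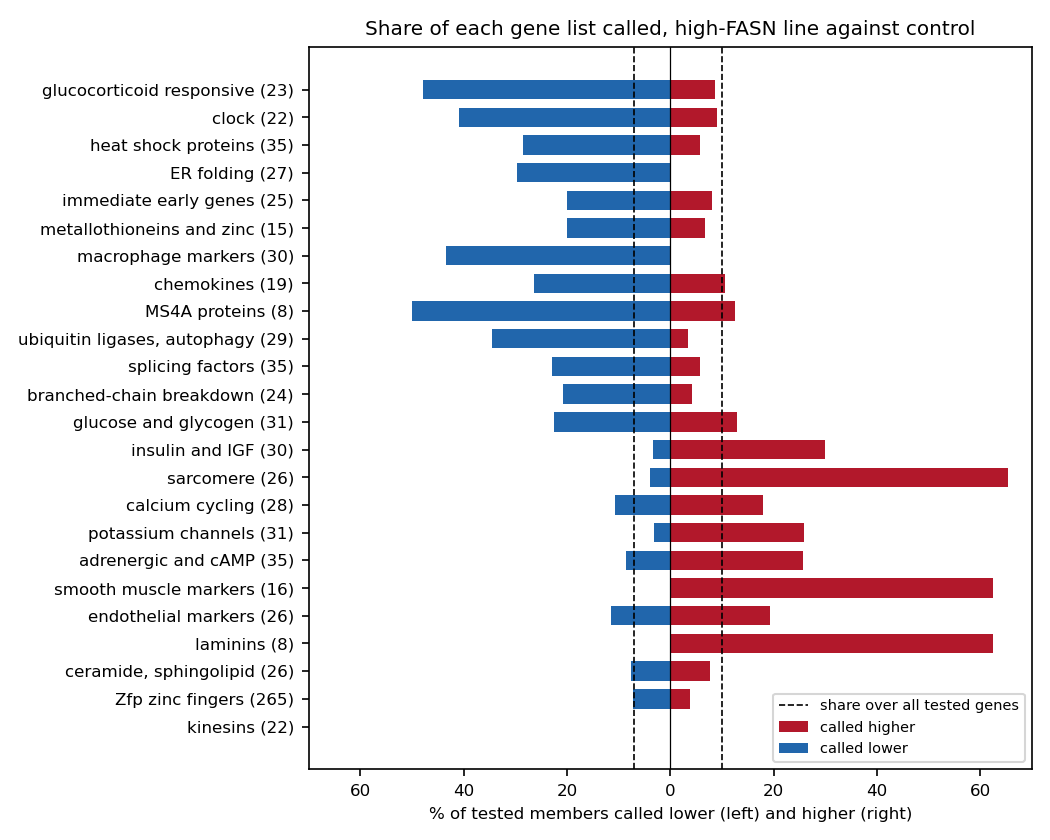
Share of the tested members of 24 lists and families called lower (left, blue) and higher (right, red) in the high-FASN line against control, in percent; the number tested stands in brackets, and dashed lines mark the shares over all tested genes, 6.96% lower and 9.97% higher. Glucocorticoid, clock, macrophage and MS4A members lean left, sarcomere, smooth muscle and laminin members lean right, and ceramide genes, Zfp zinc fingers and kinesins lie close to or inside the dashed lines.

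Genes of the contractile apparatus were mostly higher by small amounts. Of 26 tested sarcomere genes 17 rose and 1 fell, with a median of 0.25. Myh7, the slow beta myosin heavy chain of the fetal and stressed mouse heart, was at 2692 and 2497 in the high line, against 1129 and 1208 in the low line and against 1444 and 1487 in the controls. The low line lay below both controls and the high line above, and the rise was 0.82 (SE 0.067, adjusted p = 7.48e-05). Tpm2, a tropomyosin isoform, was at 1847 and 1991 on the control arrays, then 1823 and 1980.1 on the low arrays and 2774 and 2906 on the high arrays, and it rose by 0.56 (SE 0.067, adjusted p = 0.00069). Myl7 and Myl4, the atrial light chains, rose by 0.44 and 0.32. Myh6 had no settled direction, since its brightest probe set was called higher by 0.25, a call lost without either control array or after quantile normalization or median centring, and a dimmer probe set was called lower (-0.22). The count of sarcomere genes depended on the scaling between arrays. After quantile normalization 9 rose and the median was 0.08, after median centring 7 rose, and after cyclic loess 18 rose. With control array 1 or 2 left out, 8 and 5 rose and none fell. Summed heart muscle markers were 370721 and 410278 on the high arrays, 303802 and 310893 on the low arrays and 331260 and 343167 on the controls. The same sensitivity to scaling held for subunits of cytochrome oxidase, of which 6 of 16 rose and 3 did so after quantile normalization or median centring. It also held for cytosolic ribosomal proteins, of which 13 of 47 rose, 3 did so after median centring and 20 after cyclic loess. With 1 array left out, 2 (without control array 2) to 11 (without high array 2) cytochrome oxidase genes rose, and for ribosomal proteins the rises numbered 8, 24, 6 and 2 without high array 1, high array 2, control array 1 and control array 2.

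**Figure D4:**
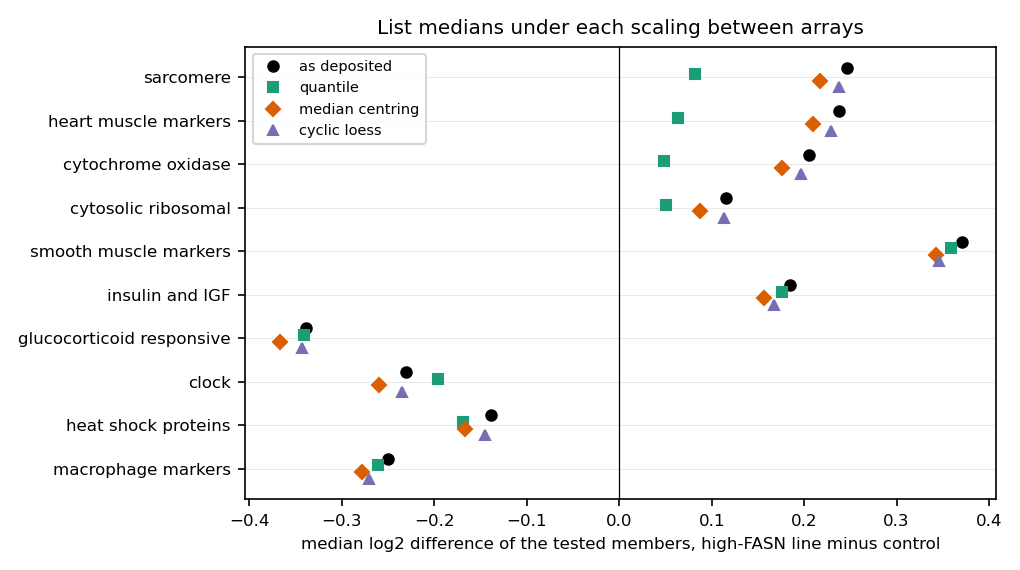
Median log2 difference of the tested members of 10 lists, high-FASN line minus control, with the deposited scaling (circles) and after quantile normalization, median centring or cyclic loess. The medians of the sarcomere, heart muscle, cytochrome oxidase and ribosomal lists move towards 0 under quantile normalization, from 0.25 to 0.08 for the sarcomere, while the medians of the other 6 lists move little.

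Around the sarcomere, changes went in both directions. Of 31 tested Z-disc and intercalated disc genes 5 rose and 3 fell, with 9 rises without high array 2, 8 rises after cyclic loess and 5 falls after quantile normalization. Pdlim3, which ties alpha-actinin at the Z-disc, was at 719.8 and 729 on the high arrays, against 609 and 638 on the low arrays and 400.2 and 379.8 on the controls, and it rose by 0.87 (SE 0.084, adjusted p = 0.00021). Dsc2, a desmosomal cadherin, rose by 0.51. Csrp2, a LIM protein of smooth muscle, was at 1604 and 1583 in the high line, against 1849 and 1639.5 in the low line and against 801 and 692 in the controls, and it rose by 1.08 (SE 0.087, adjusted p = 6.89e-05). Trim54, a ubiquitin ligase of the sarcomere, was at 3020.5 and 3165 on the control arrays, then 892 and 979 on the low arrays and 2005 and 1912 on the high arrays. It fell by 0.65 (SE 0.068, adjusted p = 0.000303) in the high line and stood lower still in the low line. Trim54 was one of 10 of 29 tested ubiquitin-ligase and autophagy genes that fell, against 1 that rose. Foxo3, a transcription factor that drives atrophy and autophagy genes, was at 1042 and 1117 on the high arrays, against 1026 and 1067 on the low arrays and 1840.3 and 1909 on the controls, and Bnip3, a receptor for the removal of mitochondria, fell by 0.62. Map1lc3b, the autophagosome protein LC3B, fell by 0.32, but its other probe sets differed by -0.072 and 0.060. With control array 1 left out, 5 members fell, and without high array 2 or control array 2, or after median centring, none rose.

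Genes that set the electrical and chemical excitation of muscle changed member by member. Of 31 tested potassium channel genes 8 rose and 1 fell. Kcnq1, the pore of the slow repolarising current, was at 545 and 516 in the high line, against 502 and 446 in the low line and against 255 and 295 in the controls, with the low line near the high line, and it rose by 0.91 (SE 0.11, adjusted p = 0.000785). Kcnj8, a pore of ATP-sensitive channels that is strong in mural cells, rose from 1091 and 1100.3 to 1502 and 1535. Kcnk1, a background channel, was the 1 that fell, at 184 and 119 on the control arrays, then 17.7 and 24.1 on the low arrays and 37.9 and 39.02 on the high arrays. Kcnd2, of the fast transient current, was not called by its brightest probe set (0.037, adjusted p = 0.836), while another was called higher (0.62, adjusted p = 0.0345). Without control array 1 or 2 the rises numbered 2 and 3 and Kcnk1 was then below the signal filter, and without high array 1 or after median centring 5 rose. All 4 tested connexins, which form gap junctions, rose. Gjc1, connexin 45 of the conduction system, was at 839 and 821 on the high arrays, against 1142 and 1178 on the low arrays and 545 and 535 on the controls, with the low line highest, and it rose by 0.61 (SE 0.072, adjusted p = 0.000679). Gja1, the main ventricular connexin, rose by 0.22, a call lost without control array 1 (adjusted p = 0.0545) or 2 (adjusted p = 0.165). Without control array 1 or 2, 2 and 1 of the 4 rose, and after median centring 2.

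In calcium cycling, Casq1, the skeletal form of the calcium store protein calsequestrin, was at 345 and 401 in the high line, against 556 and 636 in the low line and against 184 and 144 in the controls, and it rose by 1.12 (SE 0.14, adjusted p = 0.000958). Of 28 tested members 5 rose and 3 fell. Camk2b, the beta chain of the kinase CaMKII, was at 249 and 252 on the control arrays, then 88.3 and 111 on the low arrays and 118 and 129 on the high arrays, and it fell by 0.94; this call was lost without control array 2 (adjusted p = 0.0511). Sln, sarcolipin, differed by 0.040 and was not called (adjusted p = 0.711). Without control array 2, 1 calcium gene rose and none fell, without control array 1, 3 rose and 1 fell, without high array 1, 1 fell, and after median centring 3 rose. In cAMP signalling 9 of 35 tested genes rose and 3 fell. Pde3b, a cAMP phosphodiesterase that insulin activates in fat, was at 734 and 882 on the high arrays, against 489 and 554 on the low arrays and 367 and 422 on the controls, and it rose by 1.003 (SE 0.12, adjusted p = 0.000639). Pde2a, a phosphodiesterase stimulated by cGMP, rose by 0.57. Pde7a fell from 676 and 712 to 411 and 409, and all 7 of its tested probe sets fell. Without control array 2, 4 cAMP genes rose and 2 fell, and without control array 1, 7 rose and 1 fell.

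**Figure D5:**
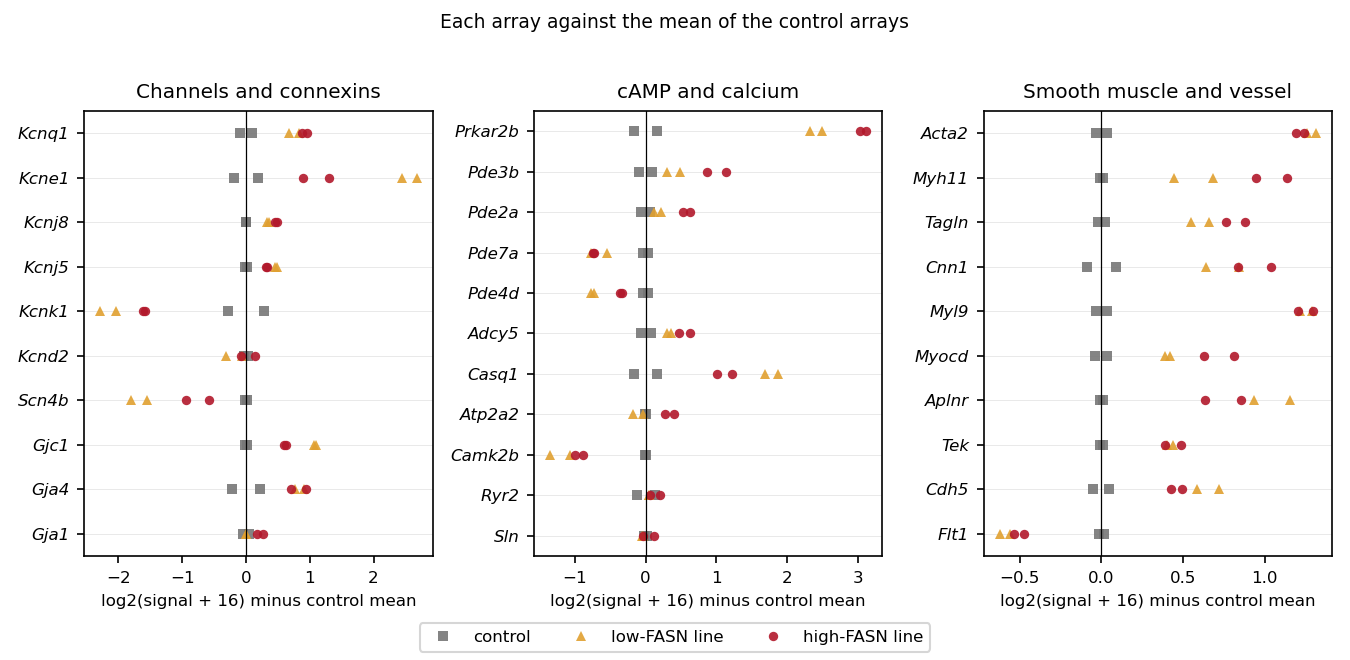
Log2(signal + 16) of each array minus the mean of the 2 control arrays, for potassium and sodium channels and connexins (left), cAMP and calcium genes (middle) and smooth muscle and vessel genes (right); squares are controls, triangles the low-FASN line and circles the high-FASN line. Prkar2b has its circles near 3, Acta2 and Myl9 have circles and triangles together above 1, and Kcnk1 and Camk2b have both lines below 0.

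Smooth muscle genes rose. Of 16 tested markers of pericytes and smooth muscle 10 rose and none fell (1 fell without high array 1), with a median of 0.37. Acta2, smooth muscle actin, was at 8780.3 and 8466 in the high line, against 9237 and 8878 in the low line and against 3792 and 3610.3 in the controls. The lines lay together above the controls, the rise was 1.22 (SE 0.052, adjusted p = 8.45e-07), and the second tested probe set was called higher too. Myl9, the regulatory light chain of smooth muscle, was at 1012 and 965 on the control arrays, then 2321 and 2446 on the low arrays and 2453 and 2300.0 on the high arrays, and it rose by 1.25 (SE 0.065, adjusted p = 3.03e-06). Myh11, smooth muscle myosin, rose from 459 and 454 to 894 and 1022, and Tagln, an actin-binding protein, from 802 and 828 to 1511 and 1392. Myocd, the coactivator that drives smooth and cardiac muscle genes, was at 1466 and 1293 on the high arrays, against 1116 and 1090.4 on the low arrays and 852 and 808 on the controls, and it rose by 0.72 (SE 0.079, adjusted p = 0.00042), with a second probe set not called at -0.16. Summed smooth muscle markers were 45037 and 46966 on the high arrays, 43386 and 43765 on the low arrays and 35305 and 36417 on the controls. Des and Notch3, listed among these markers, differed by -0.12 (adjusted p = 0.24) and 0.12 (adjusted p = 0.609) and were not called.

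Endothelial genes split. Of 26 tested markers 5 rose and 3 fell. Aplnr, the apelin receptor, was at 2731 and 3173 in the high line, against 3366 and 3922 in the low line and against 1763 and 1736 in the controls, and it rose by 0.75 (SE 0.088, adjusted p = 0.000648), while a second, dimmer probe set differed by 0.0058 and was not called. Tek, the angiopoietin receptor Tie2, rose by 0.44. Flt1, the VEGF receptor that also acts as a decoy, was at 1884 and 1842 on the control arrays. It was at 1203 and 1260.3 on the low arrays and 1339 and 1278 on the high arrays. By its brightest probe set Flt1 fell by 0.51 (SE 0.063, adjusted p = 0.000914). Its 3 dimmer tested probe sets were not called, at -0.039, -0.14 and 0.14. Pecam1, carried by all endothelium, differed by -0.13 and was not called (adjusted p = 0.389). Summed endothelial markers were 54143 and 55549 on the high arrays against 51793 and 52366 on the controls. Without control array 2, 3 markers rose and 2 fell. Plxnd1, the semaphorin receptor of vessels, rose by 0.74, as did 4 other semaphorins and plexins of 24 tested, with 1 lower. Without high array 1, control array 1 or control array 2, and under each other scaling, 3 rose, and with 1 array left out 0 to 2 fell. Of 8 tested laminins, the cross-shaped proteins of basement membranes, 5 rose and none fell (median 0.31). Lama2, the alpha chain of muscle, rose by 0.38 and Lamb3 by 0.66. Without control array 1 or 2, and after median centring, 3 laminins rose, and without high array 2, 1 was called lower.

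Inhibitors of matrix-degrading enzymes diverged. Timp4, the inhibitor most typical of heart, was at 1447 and 1555 on the high arrays, against 882 and 941 on the low arrays and 3097 and 3132 on the controls. The high line lay between the low line and the controls, and it fell by 1.05 (SE 0.066, adjusted p = 1.33e-05). Timp1, an inducible inhibitor, fell by 1.19. Timp2 rose from 1879 and 1795 to 2390.4 and 2402. Mmp2, a gelatinase, rose by 0.49.

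Some called genes were neighbours. Along the chromosomes, the next tested gene was called higher too for 9.69% of higher genes, where 9.98% of the 11476 placed genes were called higher. For lower genes the share was 9.89% against 6.96%. The longest run held 5 genes, all higher, from the Bex and Tceal family of small X-linked proteins: Tceal8, Bex1, Tceal9, Bex3 and Tceal1. Bex1 was at 405 and 472 in the high line, against 479.9 and 447 in the low line and against 227 and 227 in the controls, with the lines together above controls that were nearly equal, and it rose by 0.90 (SE 0.11, adjusted p = 0.000894). Tceal8 rose by 0.76, Bex3 by 0.76, Tceal9 by 0.72 and Tceal1 by 0.55. The sixth tested member, Bex4, differed by 0.85 and was not called (adjusted p = 0.0527). Leaving out any 1 array of the comparison left at least 5 of the 6 called. The family was singled out after this run was seen. The runs in which every gene changed by at least 1 were the pairs Ccl9 and Ccl6, Hspa1b and Hspa1a, and Mt2 and Mt1, all lower.

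In hormone signalling to metabolism, 9 of 30 tested insulin and IGF genes rose and 1 fell (median 0.19), a count of 9 rises under each scaling. Pik3r1, the regulatory subunit of PI3-kinase, was the 1 that fell, at 5797 and 5309 on the control arrays, then 2808 and 2716 on the low arrays and 3033 and 2736 on the high arrays, by 0.94 (SE 0.068, adjusted p = 3.03e-05). Irs1, the adaptor of insulin and IGF receptors, rose from 1040.0 and 1049.7 to 1534 and 1627, and Igf2 from 396 and 371 to 668 and 646. Igfbp5, an IGF-binding protein, rose by 0.64. Without high array 2, 2 fell. Ppara, the nuclear receptor that directs fatty acid oxidation, was at 1055 and 999.6 on the high arrays, against 595 and 565 on the low arrays and 1455 and 1478 on the controls, and it fell by 0.51 (SE 0.071, adjusted p = 0.00163), with the low line lower still. Ppargc1a, a coactivator of mitochondrial genes, fell by 0.66 with 4 further probe sets falling, while its relative Ppargc1b rose by 0.51. Of 33 PPAR-alpha target genes 7 rose and 2 fell, without control array 1 or 2 the rises numbered 3 and 2, without high array 2, 4 fell, and after quantile normalization 5 fell. Of 31 tested genes of glucose and glycogen 4 rose and 7 fell. Slc2a1, the basal glucose transporter, fell from 1135 and 1181 to 861 and 847, and Phka1, a subunit of phosphorylase kinase in muscle, fell by 0.58. Without control array 1 or 2, 3 fell each time, and without high array 1, 2 rose.

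Other genes of sulfur amino acid metabolism fell. Cth, cystathionine gamma-lyase, which makes cysteine, was at 50.2 and 58.9 in the high line, against 92.9 and 94.5 in the low line and against 173 and 156 in the controls, and it fell by 1.36 (SE 0.19, adjusted p = 0.00156). Mtr, methionine synthase, fell by 0.55. In this list, assembled after results were known, 6 of 15 tested genes fell and 2 rose, with 2 falls without high array 2 or control array 2, 3 falls without control array 1, and 1 rise without either control array. Ogdh, a subunit of the 2-oxoglutarate dehydrogenase of the citric acid cycle, was at 5091 and 5031 on the control arrays, then 3209 and 3095 on the low arrays and 6494 and 6250.4 on the high arrays, with the low line far below the others, and a second probe set did not differ past the threshold (-0.12). Idh3b, a subunit of isocitrate dehydrogenase, fell by 0.90 by its brightest probe set, but another probe set rose by 0.94, so the gene has no settled direction.

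Some families showed few or no calls. No kinesin (22 tested), keratin (12), core histone or histone variant (6), monocarboxylate transporter (8) or gene of the MHC list (11) was called by limma. Unadjusted p-values below 0.05 were held by 7, 0, 0, 3 and 2 of them in that order. The MHC list did not hold every MHC gene. Of 9 tested MHC genes grouped by symbol 1 was called higher, beside 9.97% of all tested genes. H2-Q10, an MHC gene outside the list and among the 40 largest rises, rose by 1.53. Without high array 2, 1 kinesin and 1 gene of the MHC list were called lower, as were 1 kinesin after median centring and 1 monocarboxylate transporter after quantile normalization. Of 265 zinc finger genes named Zfp, 10 rose and 19 fell, and with 1 array left out 2 to 7 rose and 4 to 24 fell (2 rises without high array 1, 4 falls without control array 2), while after median centring 5 rose. Of 22 tested genes of cholesterol synthesis 1 rose, and of 26 tested ceramide and sphingolipid genes 2 rose and 2 fell, with 1 to 4 falls when 1 array was left out (4 without high array 2).

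The high line was also set against the low line directly, in the same model. By that contrast 2363 of 11498 tested genes were called, which is 20.6%, beside the 16.9% called against control. The lines have their control arrays in common, which makes the 2 sets of differences dependent, and the direct contrast is the test of a difference between them. Genes described above fall into kinds. For Acta2, Myl9, Mt1, Gda, Ccl6, Hspa1b and Dnajb9 the high-minus-low difference was at most 0.11 in size and not called. For Pck1, Tmem45b, Cdo1, Tkt, Slc25a1, Zbtb16, Nr4a3, Per2 and Hsp90aa1 the high line was the farther from control. For Itga8, Tfrc, Clec7a, Egr1, Ighm and Trim54 the low line was the farther, for Ighm by its brightest probe set, since its probe sets disagreed. For Manf, Nr1d2, Myh7, Ogdh and Pcx the lines lay on opposite sides of the controls.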

How the data were processed

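Total RNA of mouse hearts was extracted with RNeasy Midi columns, copied into biotin-labelled cRNA and hybridised to Affymetrix arrays, per the labels' protocols. The deposited values are linear signal intensities, 1 per probe set and array. The submitters' processing notes name the GCOS software, while the algorithm and the target of the scaling were not given in the sources used here. After trimming 2% at each end, the mean was 300.002 on every array, so the authors' values had been scaled to a common mean, and real shifts of total RNA cannot be seen. Array signal has no read depth, so precision is limited by the number of arrays.

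Of 45101 probe sets 64 array controls were left out. Values were taken as log2(signal + 16), and the 22519 probe sets at or above the median of the mean were fitted with limma 3.58.1 in R 4.3.3 (lmFit, then eBayes with an intensity trend). The model had 3 group means over 6 arrays, with 3 residual and 6.432 prior degrees of freedom. Tests were two-sided, with Benjamini-Hochberg adjusted p below 0.05 as the call. On simulated data with planted differences of 0.5, 1 and 2 between high line and control, 41 of 80, 74 of 78 and 39 of 39 were called, with 6 unplanted calls among 22519 probe sets. The simulated noise was independent and normal, with a spread set by intensity alone. Real spreads also differ between probe sets of one intensity, so these counts do not give the recovery or false calls on the real arrays. Gene names came from the platform annotation, with 34945 probe sets of 1 symbol, 932 of several and 9160 not listed. Each gene is represented by its brightest probe set.

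The members, lists and tests were chosen with earlier results of these data known. Genes named are Fasn, genes among the 40 largest rises and 40 largest falls, up to 6 called members with the smallest p and up to 2 members not called of each list, a panel set down with the lists, and others chosen after their values were seen. The lists of citrate export with NADPH supply, sulfur amino acids and the Bex and Tceal family were added after results were seen. Cell type marker lists are given as summed signals. Promoters are RefSeq sequences of GRCm38.p6. The alternatives were quantile normalization, median centring and cyclic loess between arrays, pseudocounts of 1 and 64, no filter and a filter at the 75th percentile, no intensity trend, a fit restricted to the 4 arrays compared, a block by replicate number, each array left out, and for lists the probe set with the smallest p of each gene. With 1 array left out, the lone array of its group was taken to vary like the others.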

Additional observations from a re-analysis of the deposited data

Results flagged for a closer look

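Among the genes named in the text and the 40 largest rises and falls, there were 6 for which both high-FASN arrays lay on one side of both controls and both low-FASN arrays on the other, with the high line called against control and the direct contrast of the lines called too (limma, Benjamini-Hochberg adjusted). The high-minus-low difference was -0.94 for Manf (adjusted p = 4.08e-05) and -0.76 for Nr1d2 (adjusted p = 5.05e-05). It was 1.14 for Myh7 (adjusted p = 2.42e-05), 1.01 for Ogdh (adjusted p = 1.03e-05) and 0.87 for Pcx (adjusted p = 0.000686). For Myh6 it was 0.39 (adjusted p = 0.00157), by a probe set with signals of 38169 and 34521 on the high arrays, 27487 and 27876 on the low arrays and 30897 and 30150 on the controls. That probe set was called higher in the high line (0.25, adjusted p = 0.0151), a call lost without control array 1 (adjusted p = 0.0747) or control array 2 (adjusted p = 0.118). A second Myh6 probe set, at 2006 and 1833 on the high arrays, 3394 and 3511 on the low arrays and 2228 and 2260.0 on the controls, was called lower (-0.22, adjusted p = 0.0393), so Myh6 has no settled direction. Groups of 2 arrays are too small to look for a single array that stands apart from its group.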

How the results depend on the processing

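The number of called probe sets depended most on the variance model and on the control arrays. For the high line against control, 3234 were called, 1233 without the intensity trend, and 1411 (without control array 2) to 3497 (without high array 2) with 1 array left out, where leaving out control array 1 gave 1612. For high against low, 4179 were called, 1449 without the trend, and 1554 (without low array 2) to 4184 (without high array 2) with 1 array left out, where leaving out low array 1 gave 1577. Every other alternative stayed within 1.5 times of these counts. Of the calls against control 57.0% were higher, 51.4% after quantile normalization and 51.9% after cyclic loess. After median centring, 47.8% were. Of 191 genes followed, none that was called changed direction in any alternative in which it was tested. With the filter at the 75th percentile, 134 of them were tested. Many were chosen for a large change or a small p, and each kept its probe set. Stable directions of these genes were therefore likely beforehand. Calls were lost for 25 without the trend, for 8 with no filter on low values, for 5 in the fit of only the 4 arrays compared and for 4 to 7 with 1 array left out, when 185 to 187 of them were still tested. Of 120 counts of list members called in 1 direction, 66 moved by over 1.5 times without the trend, all to fewer, 58 without control array 1 and 54 without control array 2. The replicate numbers did not pair the arrays, since the correlations of their deviations from the group means were 0.0396 for high with low, 0.0273 for high with control and 0.000398 for low with control. With the replicate block 3392 probe sets were called against control and 4325 against the low line. Dim signals limit the folds of genes near the floor of the filter, a signal of about 47.01.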
